A study of Homo sapiens with 4 samples.

Results

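Processed pseudogenes that held counts were described in the total RNA of extracellular vesicles (EVs) from PC3 cells, a human prostate cancer line derived from a bone metastasis. They were selected on the measured counts, as the genes that GENCODE classes as processed or transcribed processed pseudogenes and that had at least 20 reads summed over both replicates. Of 10602 such pseudogenes in the table, 47 reached this minimum, 38 of the processed and 9 of the transcribed processed class. The rule took 0.443% of the processed pseudogenes, and the same minimum took 19.9% of 19629 protein-coding genes. The EVs were isolated with the exoEasy Maxi kit and gravity flow chromatography. Their RNA was made into stranded total RNA libraries, described by the study as 2 biological replicates. All EVs came from the same cells in 1 condition, which leaves nothing to contrast, and the values below carry no test. Because the minimum was set on these counts, the levels of the selected genes are a description only.

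Processed pseudogenes arise when a spliced mRNA is reverse transcribed by the LINE-1 machinery and inserted at a new place in the genome. Such a copy usually has no introns, may end in a run of adenines, and carries no promoter from its source. Genes that are highly expressed in the germ line, such as those of ribosomal proteins, have left many copies, and a few copies are transcribed from neighbouring promoters. A short read from the parent mRNA can resemble its copy closely, so the origin of a read counted on a pseudogene depends on the bases in which both differ.

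The HTSeq counts comprised 489170 reads on genes in replicate 1 and 475942 in replicate 2, so 1 read equalled 2.04 CPM in replicate 1 and 2.10 CPM in replicate 2, where CPM is the count scaled to 1000000 reads on genes. A further 45.5% and 48.1% of all reads were set aside because they aligned to more than 1 place, and these could not be assigned to a pseudogene or to its parent. The strand setting of the counting is not given in the sources used here. Where a protein-coding gene and the antisense gene named after it overlapped in exons and had at least 20 reads together, the antisense gene had more reads in 260 of 453 pairs (57.4%) and in 17 of the 20 pairs with the most reads. VIM-AS1, for example, had 1958 and 2209 reads, against 130 and 87 on VIM. From counts alone, RNA of a pseudogene and RNA of the strand opposite to it therefore cannot be told apart.

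To show how closely copy and parent resemble each other, stretches of 120 bases are given for 4 pairs, taken where the parent's coding sequence and the gap-free alignment hold the most mismatches. HMGA1P2 had the highest mean count, RPL29P4 and RPL7AP6 exceeded their parents per kilobase of exon, and GAPDHP55 was among the most divergent. All are GRCh38 sequences written 5′ to 3′, the parent as spliced mRNA, and capitals mark the bases that differ between both sequences of a pair.
HMGA1P2, chr4:73098874-73098993, plus strand: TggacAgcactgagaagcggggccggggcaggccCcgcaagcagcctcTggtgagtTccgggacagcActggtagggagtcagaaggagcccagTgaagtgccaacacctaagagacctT
HMGA1, coding bases 53 to 172: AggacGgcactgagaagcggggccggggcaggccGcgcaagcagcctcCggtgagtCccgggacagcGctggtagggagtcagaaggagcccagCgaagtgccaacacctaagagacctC
RPL29P4, chr6:117999181-117999300, plus strand: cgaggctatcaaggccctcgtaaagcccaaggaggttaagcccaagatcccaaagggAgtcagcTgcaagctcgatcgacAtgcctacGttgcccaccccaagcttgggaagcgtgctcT
RPL29, coding bases 207 to 326: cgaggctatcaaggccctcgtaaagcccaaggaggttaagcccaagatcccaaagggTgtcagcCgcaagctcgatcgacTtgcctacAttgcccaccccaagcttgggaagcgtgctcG
RPL7AP6, chr14:69885660-69885779, minus strand: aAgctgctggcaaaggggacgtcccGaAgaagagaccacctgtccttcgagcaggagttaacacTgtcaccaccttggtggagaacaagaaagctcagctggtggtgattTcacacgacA
RPL7A, coding bases 362 to 481: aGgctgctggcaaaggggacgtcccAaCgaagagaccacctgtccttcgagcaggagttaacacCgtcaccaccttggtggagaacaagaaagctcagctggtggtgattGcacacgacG
GAPDHP55, chr15:44064086-44064205, plus strand: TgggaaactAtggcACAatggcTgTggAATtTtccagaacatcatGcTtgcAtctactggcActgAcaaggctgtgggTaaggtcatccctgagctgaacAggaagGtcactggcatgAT
GAPDH, coding bases 576 to 695: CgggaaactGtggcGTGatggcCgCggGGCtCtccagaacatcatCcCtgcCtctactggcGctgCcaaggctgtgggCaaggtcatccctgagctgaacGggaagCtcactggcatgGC
The HMGA1P2 stretch differed from HMGA1 in 8 bases, RPL29P4 from RPL29 in 5, RPL7AP6 from RPL7A in 6 and GAPDHP55 from GAPDH in 21. The parent stretches of HMGA1 and RPL7A each contain 1 exon junction, across which both copies run without interruption.

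The selected pseudogenes together held 1075 reads in replicate 1 and 709 in replicate 2. These were 0.220% (95% Wilson interval 0.207 to 0.233%) and 0.149% (0.138 to 0.160%) of the reads on genes, a mean of 0.184% ± 0.0501 (SD, n = 2). The intervals do not overlap, but they treat each read as independent and leave out the spread between replicates. Amplified reads are not independent molecules, so the intervals can be too narrow, and the difference was not tested. All 10602 processed pseudogenes held 2049 and 1817 reads, or 0.419% and 0.382%, so the selected genes accounted for 46.1% of these reads. No read was counted on 10236 processed pseudogenes (96.5%). Taken as 3 reads, this allows each of them up to 0.000613% of the reads on genes in replicate 1 and 0.000630% in replicate 2. The limit does not cover reads that were set aside because they aligned to more than 1 place. In 678 of these genes, less than 50% of the stretches of 64 bases occurred at only 1 place in the genome. Of the 366 with a read, 72 had a read in both replicates.

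The highest levels were similar in size. HMGA1P2, a copy of the gene for the chromatin architectural protein HMGA1, had 62 and 47 reads, or 113 CPM ± 19.8 (SD, n = 2). RPL13P12, a copy of a large ribosomal subunit gene, had 81 reads in replicate 1 and 24 in replicate 2, or 108 CPM ± 81.4 (SD, n = 2). ENSG00000255585, which has no named parent, had 43 and 57 reads, or 104 CPM ± 22.5 (SD, n = 2). The order of these 3 lies within their SDs. RPL29P4 followed with 46 and 28 reads, or 76.4 CPM ± 24.9 (SD, n = 2), and RPL7AP6 with 24 and 48 reads, or 74.96 CPM ± 36.6 (SD, n = 2). RPL29 and RPL7A both encode proteins of the large ribosomal subunit, and RPL7AP6 was the higher in replicate 2 but the lower in replicate 1. The 5 genes at ranks 6 to 10 were RPS2P5, ENSG00000237846, ENSG00000243829, RPS2P46 and MXRA7P1, at 51.5 to 62.5 CPM.

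The genes named here from ranks 12 to 25 lay between 28.1 and 47.1 CPM. EEF1A1P5, a copy of the translation elongation factor gene, had 6 and 39 reads, whereas KRT8P12, a copy of the epithelial keratin 8 gene, had 18 and 24. RPL36AP37 had 20 and 14 reads, and MTND4P12, a nuclear copy of the mitochondrial complex I gene MT-ND4, had 20 and 12. PTMAP5, from the gene for prothymosin alpha, had 9 and 18 reads at rank 25. Neighbours in this order differed by less than the spread between replicates.

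**Figure D1:**
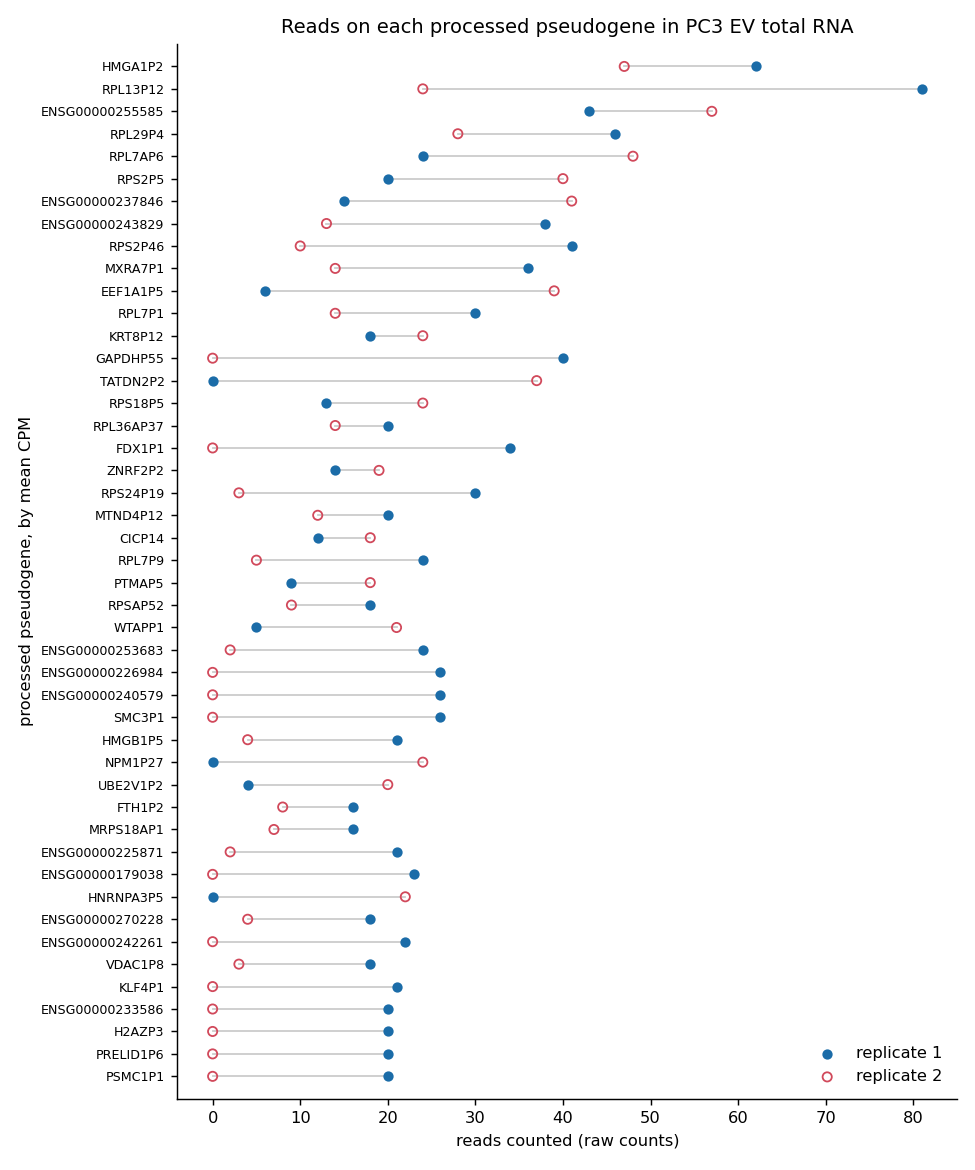
Reads counted on 46 of the 47 processed pseudogenes (x axis, raw counts), ordered by mean CPM from top to bottom, with filled points for replicate 1, open points for replicate 2 and a grey line joining both. HMGA1P2 and ENSG00000255585 were above 40 reads in both replicates, whereas 15 genes had no read in 1 replicate.

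The replicates differed greatly for many single pseudogenes. Of the 47, 32 had a read in both replicates, 12 had none in replicate 2 and 3 had none in replicate 1. By CPM, 31 were higher in replicate 1 and 16 in replicate 2. GAPDHP55 showed the largest ratio, with 40 reads against 0, followed by TATDN2P2 with 0 against 37, FDX1P1 with 34 against 0, and ENSG00000226984 and ENSG00000240579 with 26 against 0 each. SMC3P1 had the same counts as the last 2. Absence from 1 replicate was also seen for 636 of 3354 protein-coding genes (18.96%) and 158 of 746 lncRNA genes (21.2%) with 20 to 109 summed reads, against 31.9% of the selected pseudogenes. The classes were not matched on counts within this range, and 37 of the 47 pseudogenes had 20 to 49 reads.

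At the minimum itself, PSMC1P1, PRELID1P6, H2AZP3 and ENSG00000233586 were included with 20 reads, all in replicate 1. KLF4P1 with 21 and 0 reads and VDAC1P8 with 18 and 3 were just above them. Just outside were RPL23AP42 with 12 and 7, RPL23AP70 with 19 and 0, and ZBTB45P2 with 15 and 4 reads. The minimum therefore separated genes that differed by a single read.

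The most frequent parents were ribosomal protein genes, whose products form the cytosolic ribosome. By the parent named in the symbol, they gave rise to 12 of the 47 (25.5%) and to 1598 of the 10602 processed pseudogenes (15.1%). Of these 1598, 77 had a read (4.82%), against 3.45% of all processed pseudogenes. The 12 held 361 and 253 reads, 34.4% of the reads on the selected genes, and all 12 had a read in both replicates. By mean CPM they were led by RPL13P12, RPL29P4, RPL7AP6 and RPS2P5. Their parents were 10 different genes, because RPS2 and RPL7 each had 2 copies in the set. RPS2P5 had 20 and 40 reads and RPS2P46 had 41 and 10, so their order turned between replicates. RPL7P1 had 30 and 14 reads and RPL7P9 had 24 and 5. Members without a named parent are not in this group, although by sequence ENSG00000243829 (38 and 13 reads) matched RPS9 best. ENSG00000226984 (26 and 0 reads) matched RPL26 best, so a grouping by sequence would include a copy without a read in replicate 2.

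Copies of chromatin protein genes were the next largest group, with 4 of 237 (1.69%, against 0.443% of all processed pseudogenes): HMGA1P2, PTMAP5, HMGB1P5 and H2AZP3. HMGA1 and HMGB1 encode high mobility group proteins that bend or bind DNA, PTMA the histone-binding prothymosin alpha and H2AZ1 a histone variant. PTMAP5 had 9 and 18 reads, HMGB1P5 had 21 and 4, and H2AZP3 had 20 and 0, so of these 4 only HMGA1P2 had at least 20 reads in each replicate. Proteasome and ubiquitin genes gave 2 of 93 copies (2.15%), UBE2V1P2 with 4 and 20 reads and PSMC1P1 with 20 and 0. A single member each came from translation factors (EEF1A1P5), ferritin (FTH1P2), keratins (KRT8P12), RNA-binding proteins (HNRNPA3P5), glycolysis (GAPDHP55), respiratory chain and mitochondrial carrier genes (VDAC1P8, from a gene for a channel of the outer mitochondrial membrane) and nucleolar proteins (NPM1P27). FTH1P2, a copy of the iron storage gene FTH1, had 16 and 8 reads, while HNRNPA3P5 and NPM1P27 had 0 and 22 and 0 and 24. No member came from 123 actin, tubulin and thymosin copies, 124 copies of heat shock protein and chaperone genes, 91 cyclophilin copies or 11 annexin and S100 copies. Of these, 9, 5, 4 and 1 had a read (7.32%, 4.03%, 4.40% and 9.09%), against 3.45% of all processed pseudogenes. With 0.443% of all selected, the lack of a member in groups of this size says little about them. Other parents, among them MT-ND4 of the mitochondrial genome and the cohesin gene SMC3, accounted for 11 members and 11 had no named parent.

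In the families with many copies, few copies were counted, and few were counted among all processed pseudogenes, of which 3.45% had a read. GAPDH has 64 copies in the table, of which 4 had a read and 1 reached 20 reads. RPL7A has 80 copies, of which 5 had a read, and RPL36A has 52, of which RPL36AP37 alone had any. The 7 HMGA1 copies held 67 and 52 reads, of which 62 and 47 were on HMGA1P2.

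For the 36 pseudogenes with a named parent, levels were compared as mean CPM per kilobase of exon, which places a short copy and a long parent on the same length scale. By this measure 22 were higher than their parent and 14 lower. The direction was the same in both replicates for 22 of the 36, with 11 higher and 11 lower. It changed between replicates for 12, and in the other 2, FDX1P1 and SMC3P1, neither copy nor parent had a read in replicate 2. Only 11 of the 36 had more reads than their parent before division by length. Where parents at 0 reads were set at a limit of 3 reads over both libraries, the median pseudogene was 1.61-fold its parent per kilobase, a log2 ratio of 0.69. When 0.5 reads were added in each replicate and the log2 ratios were averaged, the median was -0.25. With the same addition it was 0.43 in replicate 1 alone and 0.028 in replicate 2 alone. The sign of the median thus depended on how a count of 0 was treated and on how the replicates were combined.

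Several parents had higher levels than their copies, some of them by far. MT-ND4, read from the mitochondrial genome, had 8491 and 8676 reads, and per kilobase MTND4P12 stood at 0.00187 of its level. HMGA1 had 724 and 683 reads, or 626 CPM per kilobase ± 13.7 (SD, n = 2), against 348 ± 61.1 for HMGA1P2. RPS2 had 1151 and 948 reads, and RPS2P5 and RPS2P46 were at 0.0777 and 0.0657 of its level per kilobase. FTH1 had 1050 and 707 reads, KRT8 966 and 1088, and GAPDH 512 and 372. FTH1P2, KRT8P12 and GAPDHP55 were below these parents per kilobase, at 0.0664, 0.0687 and 0.135 of the parent level. With the length of the canonical transcript in place of all annotated exons, RPS2P5 and RPS2P46 were at 0.0307 and 0.0260, FTH1P2 at 0.0399, KRT8P12 at 0.0261, GAPDHP55 at 0.0724 and RPL13P12 at 0.479 of the parent level. RPL13P12, at 170 CPM per kilobase ± 128 (SD, n = 2), differed from RPL13, at 202 ± 6.57, by less than its SD.

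Other copies had more reads per kilobase than the gene they derive from. RPL29P4 was 3.08-fold its parent, with 46 and 28 reads on 474 bases against 54 and 48 on the 2011 exon bases of RPL29. On the canonical RPL29 transcript of 754 bases this fell to 1.15-fold. RPL7AP6 was 33.5-fold its parent, or 13.3-fold by canonical length, since RPL7A had only 2 and 4 reads. RPSAP52, whose parent encodes the laminin receptor and ribosomal protein SA, had 18 and 9 reads against 0 and 4 on RPSA. SMC3P1 had 26 and 0 reads against 19 and 0 on SMC3, and neither was counted in replicate 2. No read in either replicate was counted on 6 parents: MXRA7, RPS18, RPL36A, FDX1, UBE2V1 and MRPS18A. Their copies had 23 to 50 summed reads and, against the limit of 3 reads over both libraries, were at least 14.8-fold to 64.7-fold higher per kilobase of the canonical transcript. Over all annotated exons the same limits were 18.0-fold to 302-fold. MXRA7P1 had 36 and 14 reads, RPS18P5 had 13 and 24, and FDX1P1 had 34 and 0. A count of 0 on a parent does not show that its mRNA was absent, because reads shared with copies were set aside. With the strand setting unknown, the reads counted on parents, and so each ratio of copy to parent, can likewise come from the opposite strand.

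**Figure D2:**
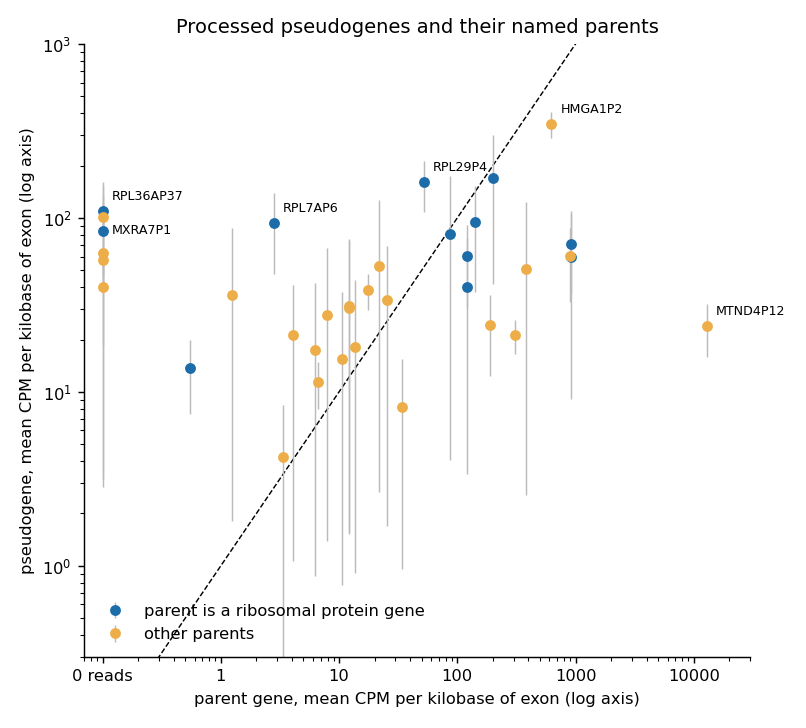
Mean CPM per kilobase of exon of the 36 pseudogenes (y axis) against that of the named parent (x axis), both on log axes, with bars for the SD over 2 replicates, cut short where they would reach 0, and a dashed line of equal levels. Parents without a read are drawn at the left edge, RPL36AP37 and MXRA7P1 among them, and 22 points lie above the line, which MTND4P12 lies farthest below.

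The selected copies were close in sequence to their parents. Identity, over the local alignment to the canonical parent mRNA, had a median of 97.7% (quartiles 91.1 to 98.7%) for the 36 with a named parent. The median was 94.6% for 231 named pseudogenes with 1 to 19 reads and 87.4% for 6337 without a read. At least 95% identity was reached by 24 of 36 (66.7%), by 48.5% of those with 1 to 19 reads and by 10.8% of those without a read. The highest identity was that of RPL36AP37, which matched RPL36A in every base of its 321, and the lowest was 69.9%, for KLF4P1. The copies of ribosomal protein genes ranged from 91.4% (RPSAP52) to 100% with a median of 98.7%. Below 90% lay, among others, KRT8P12 at 86.2%, TATDN2P2 at 85.5%, GAPDHP55 at 85.4%, CICP14 at 83.9%, ZNRF2P2 at 81.95% and WTAPP1 at 75.7%. These differences in identity between groups of pseudogenes are descriptions without a test.

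**Figure D3:**
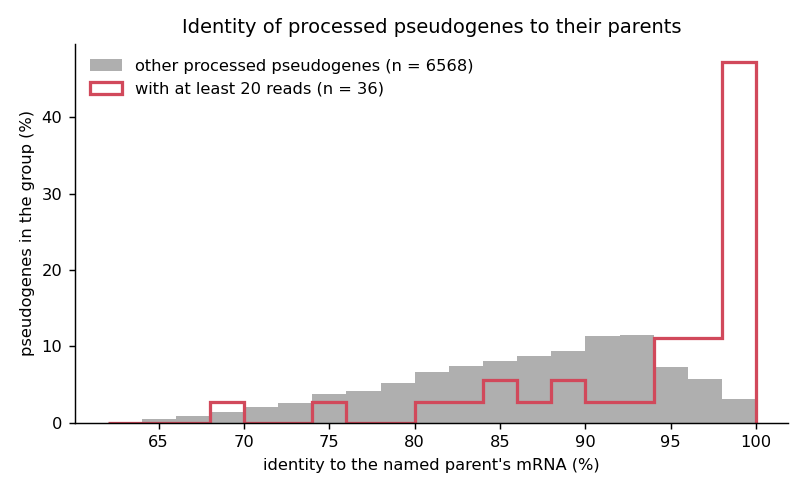
Identity to the named parent's mRNA (x axis, %) as the share of pseudogenes in each group (y axis, %), with grey bars for 6568 other processed pseudogenes and a red outline for the 36 with at least 20 reads. The median was 97.7% for the selected genes and 87.6% for the others.

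Reading frames of parental length were kept by some of the copies. In 10 of the 36, the longest frame from a start codon to a stop codon had exactly as many codons as the parent's coding sequence: HMGA1P2, RPL13P12, RPL7AP6, EEF1A1P5, RPL7P1, RPS18P5, RPL36AP37, RPL7P9, PTMAP5 and H2AZP3. EEF1A1P5 had 462 codons with 4 mismatches to EEF1A1, and RPL7AP6 had 266 codons with 12 mismatches to RPL7A. A frame of at least 95% of the parent's codons was present in 33.3%, against 23.8% of pseudogenes with 1 to 19 reads and 3.96% of those without a read. RPS2P5, by contrast, had 70 of 293 codons, although it differed from its parent by 11 mismatches. Whether any of these frames is translated cannot be read from the counts.

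Traces of an mRNA origin were also visible in some of the copies. At least 15 adenines within 20 bases, searched around the annotated end, were found for 14 of the 47 (29.8%), against 16.9% of pseudogenes with 1 to 19 reads and 12.4% of those without a read. RPL13P12, RPL36AP37, RPL7P1, RPL7P9 and UBE2V1P2 had an unbroken run of 20. Of the 47, 37 consisted of a single exon. HMGA1P2 aligned across 3 exon junctions of its parent, RPL7AP6 across 7, and NPM1P27 and PSMC1P1 across 10 each. MTND4P12 crossed none, since the mitochondrial parent has no introns, and it had at most 11 adenines in 20 bases. It thus showed neither trace, and whether it arose from an mRNA was not tested.

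How far a stretch of 64 bases could tell copy from parent was measured with windows of that length. Each was searched for exact matches in the whole genome on both strands. A window that differs from all other places in a single base thus counts as unique. The length of the reads is not stated here, so the windows describe the sequence and not the reads themselves. In the 47 genes, a median of 76.2% of windows occurred at 1 place only, against 95.5% for pseudogenes with 1 to 19 reads and 100% for those without a read. All windows were unique in 11 of the 47 (23.4%) and in 67.2% of those without a read. Less than 50% of windows were unique in 12 of the 47, among them EEF1A1P5 at 16.4%, RPL7P9 at 22.95%, HMGB1P5 at 26.8%, RPL7P1 at 27.3% and RPS2P5 at 30.6%.

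A window that is unique in the genome can still occur in the spliced parent mRNA, where it spans an exon junction. This applied to at least 1 window in 24 of the 36 (66.7%), against 36.8% of named pseudogenes with 1 to 19 reads and 11.6% of those without a read. Over the 36, 33.2% of 26719 windows occurred at 2 or more places, 5.71% occurred at 1 place and also in the parent mRNA, and 61.1% belonged to the copy alone. RPL36AP37 had none of the latter, since its 109 unique windows of 258 all occurred in the RPL36A mRNA. For RPL36AP37, with 20 and 14 reads, and RPL36A, with 0 and 0, no window of 64 bases thus assigned a read to the copy rather than to the parent mRNA. PSMC1P1 was nearly as extreme, with 365 of its 429 unique windows also in PSMC1 mRNA and an identical run of 884 bases. NPM1P27 and MXRA7P1 had 169 and 110 such windows.

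At the other end, GAPDHP55, TATDN2P2, KLF4P1 and WTAPP1 had windows at 1 place only, none of which occurred in the parent mRNA. In KRT8P12 this held for 1332 of 1334 windows, in RPSAP52 for 812 of 815 and in MTND4P12 for 1301 of 1314. KRT8P12, RPSAP52, MTND4P12 and WTAPP1 had reads in both replicates, whereas GAPDHP55, TATDN2P2 and KLF4P1 had none in 1 of them. The windows came from 1 transcript per pseudogene, whereas reads were counted per gene. For WTAPP1 this transcript had 400 bases, against 3331 annotated exon bases, and for RPSAP52 it had 878 against 2035. Where the reads lay within these genes cannot be seen from the counts. The MTND4P12 stretch below holds 10 mismatches to the mitochondrial gene in 120 bases, several of them near its end. The whole alignment of 1376 bases held 58.
MTND4P12, chr5:134927869-134927988, minus strand: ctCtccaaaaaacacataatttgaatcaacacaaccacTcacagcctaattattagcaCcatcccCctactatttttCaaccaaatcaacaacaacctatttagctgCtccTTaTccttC
MT-ND4, coding bases 49 to 168: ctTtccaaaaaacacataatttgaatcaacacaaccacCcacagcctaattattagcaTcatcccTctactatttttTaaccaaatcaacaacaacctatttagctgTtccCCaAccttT

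**Figure D4:**
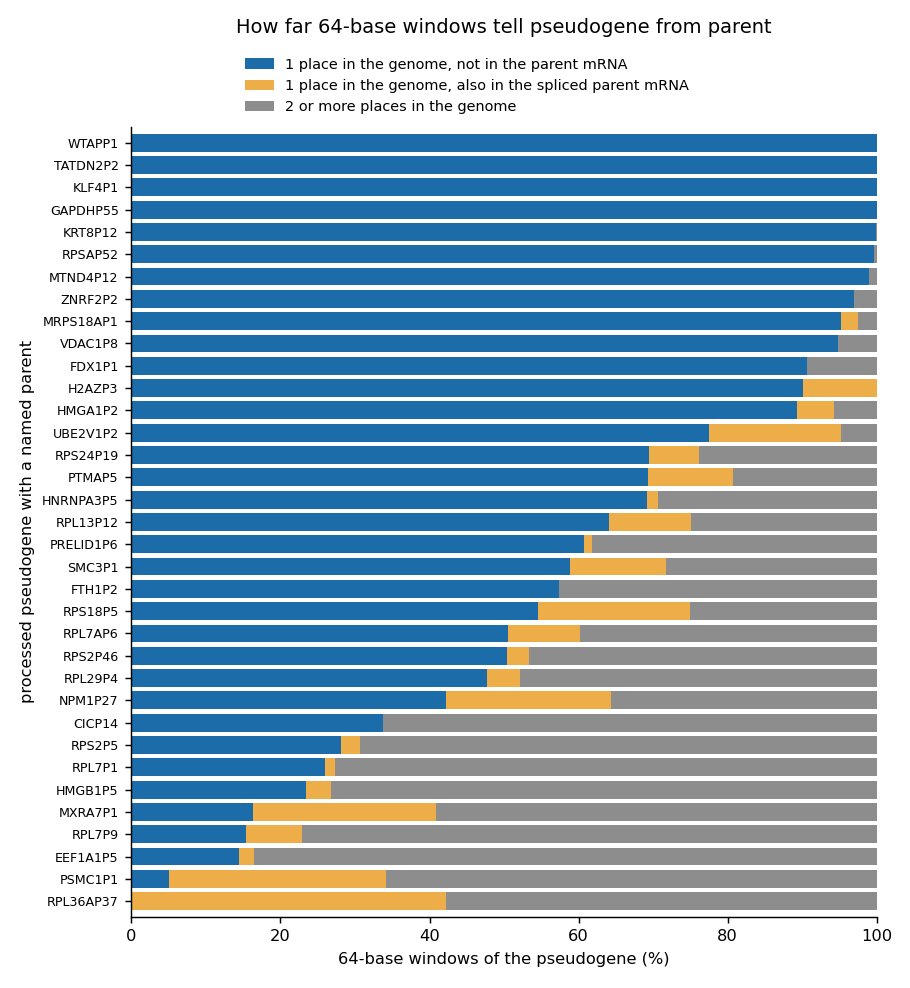
Share of 64-base windows (x axis, %) of 35 of the 36 pseudogenes that occur at 1 place in the genome and not in the parent mRNA (blue), at 1 place but also in the spliced parent mRNA (yellow) or at 2 or more places (grey). RPL36AP37 at the bottom has no blue part, and GAPDHP55 and TATDN2P2 near the top are blue throughout.

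The positions of the selected pseudogenes in the genome were examined next. They lay on 17 chromosomes, and 38 of 47 (80.9%) overlapped another annotated gene, against 50.3% of processed pseudogenes without a read. The strand of the overlapping gene was not evenly distributed. A protein-coding gene on the opposite strand was present for 26 of 47 (55.3%), for 41.7% of pseudogenes with 1 to 19 reads and for 20.7% of those without a read. On the same strand the shares were 12.8%, 11.9% and 12.8%. Exons of a gene on the opposite strand overlapped 14 of the 47 (29.8%), against 17.9% and 5.08%, and exons on the same strand overlapped 2 (4.26%), against 5.96% and 2.84%. These shares rose with the number of reads for the opposite strand alone, and the difference was not tested.

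HMGA1P2, at chr4:73098822-73099145 on the plus strand, lay within ANKRD17 on the opposite strand without exon overlap, and ANKRD17 had 70 and 73 reads. RPL7AP6 lay in the same way within SMOC1, RPL7P1 within CSF1R and GAPDHP55 within FRMD5, each of which had no read. RPS2P5 lay opposite TAOK3 with 16 and 0 reads, and RPSAP52 opposite HMGA2 with 28 and 31. Of 28 pairs of a member and a coding gene on the opposite strand, 14 had no read on the coding gene and 21 had no overlap of exons. On the same strand, RPL36AP37 lay within PLEKHA7, which had 22 and 18 reads. Whether reads on this pseudogene came from the pre-mRNA of its host was not tested.

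For ENSG00000242261 and CICP14 the exon overlap was complete. All 1030 bases of ENSG00000242261 lay opposite exons of RBM28, which had 2 and 42 reads against 22 and 0 on the pseudogene, so that both were high in different replicates. All 2732 exon bases of CICP14 lay opposite exons of a lncRNA gene without a read. KRT8P12 shared 125 bases with opposite exons of KPNA4 and MRPS18AP1 shared 352 with those of ZNF589, and neither coding gene had a read. With the strand setting unknown, these counts could belong to either strand.

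**Figure D5:**
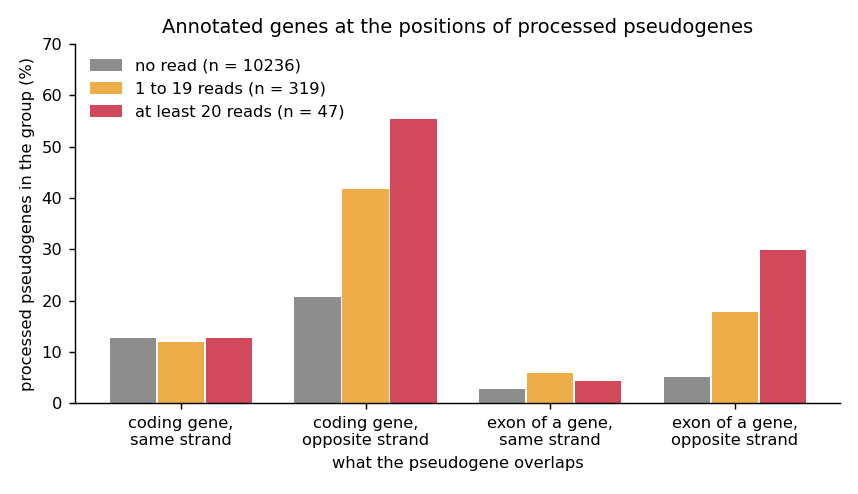
Share of processed pseudogenes (y axis, %) that overlap a protein-coding gene or an exon of any annotated gene on the same or the opposite strand (x axis), for 10236 without a read (grey), 319 with 1 to 19 reads (yellow) and 47 with at least 20 reads (red). The opposite-strand bars rise from 20.7% to 55.3% for coding genes, while the same-strand bars stay between 11.9% and 12.8%.

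The 11 selected pseudogenes without a named parent were compared with coding transcripts by sequence. ENSG00000243829, with 38 and 13 reads, was 95.9% identical to RPS9, and ENSG00000253683, with 24 and 2, was 98.4% identical to TMA7. RPS9 had no read, whereas TMA7 had 117 and 87. ENSG00000226984 matched RPL26 at 87.1% and ENSG00000240579 matched CD2BP2 at 92.3%, both with 26 reads in replicate 1 and none in replicate 2. ENSG00000255585, the highest of the group, matched FOXH1 at 87.9% over 721 bases, and its 4 exons overlapped 580 exon bases of EHMT1 on the opposite strand. EHMT1, which encodes a histone methyltransferase, had 42 and 0 reads, against 43 and 57 on the pseudogene. No coding match was found for ENSG00000237846 and ENSG00000233586.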

How the data were processed

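RNA from PC3 EVs was sequenced as stranded total RNA (2 biological replicates). Raw HTSeq read counts per Ensembl gene, made by the authors on GRCh38, were deposited without normalisation. The paper lists Cutadapt, SHRiMP and SAMtools for its sequencing without separating small from total RNA, and versions, annotation and strand setting are not given in the sources used here. The titles of both samples carry the same experiment label while the description of the second names another, so whether the SDs measure separate EV preparations is not settled by the labels. Small RNA libraries were not used here. Gene types, symbols and exons came from GENCODE release 44, which matched 56948 of 58051 identifiers. The members, gene families and measures were chosen with earlier results of these data known. The genes named are the 25 with the highest mean CPM, up to 4 per parent family, the 5 with the largest replicate ratio, those of highest and lowest identity and those around the 20-read minimum, and others were named after their values were seen. Parents were taken from the symbol and were the best coding match by blastn 2.17.0 in all 36 cases. Identity came from local alignment in Biopython 1.88 (match 2, mismatch -3). Windows of 64 bases were searched in the primary chromosomes. Identity, reading frames and windows used 1 transcript of each pseudogene, which for some genes is only a part of the annotated exons. Alignment, window and overlap steps were tested on simulated data. TMM factors came from edgeR 4.0.16, and other values from Python 3.11.15. The values of 1 member and its parent are not reported here. No statistical test was made.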

Additional observations from a re-analysis of the deposited data

How the results depend on the processing

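No paired analysis was possible because the samples form a single group. Of 34 alternatives, 14 left a value within the limits set (1.5 times for counts, 1 replicate SD for values). The number of selected pseudogenes was 138 at a minimum of 10 reads, 10 at 50, 3 at 100, 18 at 10 reads in each replicate and 98 with every pseudogene type, and with 10 reads in a single replicate it was 64 (replicate 2) to 83 (replicate 1). Their share of counts was 0.312% of protein-coding counts, 0.400% for all processed pseudogenes and 0.149 to 0.220% in single replicates. At least 10 reads in both replicates were found for 18. Above their parent were 11 by CPM without length, 4 of the 8 that overlap no other gene, and 16 to 20 in single replicates. The median log2 ratio turned to 0.028 and 0.69 with 1 and 5 reads added and was 0.028 to 0.43 in single replicates. It was -0.69 for members that overlap no other gene. After the data had been seen, 2 alternatives were added for both parent comparisons. The median was -0.99 with canonical transcript lengths and -0.69 for the 30 members whose parents had a read. Of the selected genes, 9 lay in a gene on the same strand, and 8 of the 10 with at least 50 reads lay in another gene. At this depth a gene with fewer than 3 reads cannot be told from 1 without any.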
